A study of Mus musculus with 10 samples.

Results

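The synaptonemal complex and the chromosome axis were represented by 9 genes: Sycp1, Sycp2, Sycp3, Syce1, Syce2, Syce3, Tex12, Hormad1 and Hormad2. They were taken by name as known components, with earlier results of these data in view, and 12 probes of the array carried an accession of one of them. These were 9 of 16835 genes and 12 of 33851 probes that were well above background on at least 5 of 10 arrays, and all 12 probes were so on every array. Where a gene had several probes, the brightest stood for it and the others are given beside it.

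Messenger RNA was measured in single testes of 10 male C57BL/6N mice at 6 weeks of age, on 1-colour Agilent arrays, 1 array per animal. The 5 R offspring were born to dams whose food was cut to 50% of control intake at 6.5 days after mating, and unrelated control dams reared them. The 5 C offspring were born to dams fed without limit and were reared by those dams, so fostering and prenatal diet cannot be told apart. Both groups ate regular chow freely after weaning, and the animals' litters are not given in the sources used here. The study concerns undernutrition in the womb, fetal testosterone and later sperm number. Values are log2 intensities relative to the array's 75th percentile, called the log2 signal, and each difference is R minus C.

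In the prophase of meiosis each chromosome is folded along a protein axis, and the axes of homologous chromosomes are then zipped together by the synaptonemal complex. SYCP2, SYCP3, HORMAD1 and HORMAD2 belong to the axis, SYCP1 forms the transverse filaments that bridge the gap, and SYCE1, SYCE2, SYCE3 and TEX12 build the central element in the middle. Male mice that lack a core component of the complex fail to synapse their chromosomes, and their spermatocytes die. In a whole testis, fewer cells of a type and less RNA per cell cannot be told apart.

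Of the arrays 1 stood apart, and 2 were grouped against their labels in the authors' deposited table. C replicate 2 lay at −121.6 on the first principal component, which held 59.9% of the variance, while the other C arrays lay between −13.5 and −29.5 and the R arrays between 32.9 and 48.2. In the authors' deposited table R replicate 1 counted as a control and C replicate 5 as a test array, against their labels, and these are called the contested pair of arrays. The table listed 2209 probes, none of them a member's, at a q-value of 0.515. Groups here follow the labels. On the first component R replicate 1 lay at 48.2 and C replicate 5 at −29.5, each among the arrays of its label. With the table's grouping 0 of 33851 probes were called by limma (2552 at an unadjusted p under 0.05), so every call below rests on the labels. Slide 1 held 4 R and 2 C arrays and slide 2 held 1 R and 3 C arrays, and within-slide differences are given with the results. The share of probes well above background ran from 54.6% to 65.9% over the arrays. Saturated spots numbered 0. Before scaling, C replicate 2 had the lowest median intensity over non-control probes, at 49.5, against 68.1 to 88.0 on the other arrays. Its 75th percentile of 566 was also the lowest. The mean of the array medians was 80.3 in R and 68.8 in C. Whether this bears on the place of C replicate 2 on the first component was not tested.

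The components did not move as a unit. Tex12, Hormad1, Sycp3, Sycp1 and Syce2, which serve different parts of the structure, were lower in R testes, by 1.14- to 2.23-fold. Sycp2, the axis partner of Sycp3, was higher by 1.43-fold. Syce1, Syce3 and Hormad2 did not pass the test. A call was an adjusted p under 0.05 in limma with Benjamini-Hochberg adjustment over all 33851 probes. The 5 lower and 1 higher of 9 stand against 22.9% of all genes called lower in R and 13.2% called higher, so changes in either direction were common in these testes. By the study's criterion, which adds a fold above 1.5 or under 0.66, 4 members were lower, against 6.55% of all genes, and 0 were higher, against 3.93%. Those 4 were Tex12, Hormad1, Sycp3 and Sycp1. This count depends on the probe and the setting. The other Hormad1 probes, at folds of 0.756 and 0.816, did not meet the criterion. Among other settings, Sycp1 fell short of a fold of 0.66 without C replicate 5 (log2 difference −0.58) and without the contested pair of arrays (−0.57). Sycp3 did so without C replicate 2 (−0.59). With 1 array left out at a time, Tex12 (−1.22 to −1.08) and the brightest Hormad1 probe (−1.07 to −0.87) stayed beyond it. The members' median log2 difference was −0.37, beside −0.052 over all genes.

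**Figure D1:**
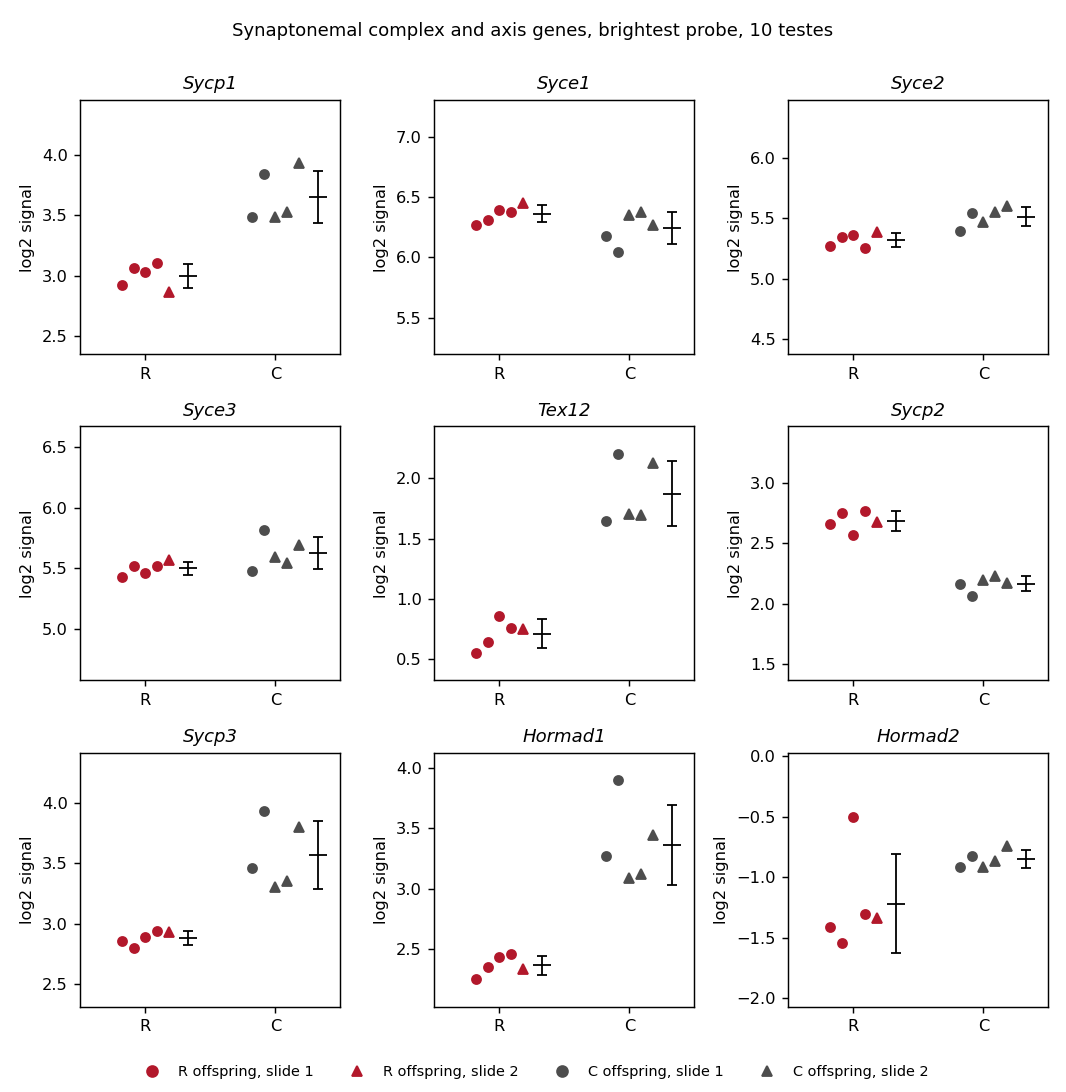
Log2 signal of the brightest probe of each gene (vertical axis) in the 5 R and the 5 C testes (horizontal axis), 1 point per array (circles slide 1, triangles slide 2), with the group mean and its SD beside the points. The R and C points do not overlap for Sycp1, Sycp2, Sycp3, Syce2, Tex12 and Hormad1, and for Hormad2 they overlap through R replicate 3 at −0.50.

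The promoters of the 5 genes lower in R are shown because these genes were called in the same direction, though by unequal amounts, and that of Sycp2 because it was called the other way. Each is the 250 bases before a RefSeq transcript start on GRCm38.p6, read 5′ to 3′ on the gene's strand, and RefSeq windows were found for all 9 genes. Capitals mark the E-box CACGTG, bound by MAX and MGA, and the E2F motif TTCCCGC, which appears as GCGGGAA where it lies on the opposite strand. The windows are chr3:102936101-102936350 on the minus strand for Sycp1, chr10:88459337-88459586 on the plus strand for Sycp3 and chr9:50561269-50561518 on the minus strand for Tex12. They are chr3:95559427-95559676 on the plus strand for Hormad1, chr8:84872008-84872257 on the plus strand for the second start of Syce2 and chr2:178407659-178407908 on the minus strand for Sycp2.
Sycp1: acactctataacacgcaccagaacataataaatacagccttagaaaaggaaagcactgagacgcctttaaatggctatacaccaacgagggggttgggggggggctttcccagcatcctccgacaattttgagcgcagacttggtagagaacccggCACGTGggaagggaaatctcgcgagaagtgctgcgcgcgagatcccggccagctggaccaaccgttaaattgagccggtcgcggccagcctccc
Sycp3: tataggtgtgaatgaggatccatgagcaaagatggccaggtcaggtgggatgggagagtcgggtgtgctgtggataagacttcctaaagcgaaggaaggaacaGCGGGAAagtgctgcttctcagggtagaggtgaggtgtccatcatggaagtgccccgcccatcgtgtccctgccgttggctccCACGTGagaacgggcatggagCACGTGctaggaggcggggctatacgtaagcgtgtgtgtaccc
Tex12: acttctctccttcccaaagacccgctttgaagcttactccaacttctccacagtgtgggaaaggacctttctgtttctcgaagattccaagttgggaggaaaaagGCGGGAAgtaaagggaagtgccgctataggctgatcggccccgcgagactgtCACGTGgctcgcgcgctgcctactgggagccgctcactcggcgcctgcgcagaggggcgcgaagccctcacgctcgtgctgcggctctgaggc
Hormad1: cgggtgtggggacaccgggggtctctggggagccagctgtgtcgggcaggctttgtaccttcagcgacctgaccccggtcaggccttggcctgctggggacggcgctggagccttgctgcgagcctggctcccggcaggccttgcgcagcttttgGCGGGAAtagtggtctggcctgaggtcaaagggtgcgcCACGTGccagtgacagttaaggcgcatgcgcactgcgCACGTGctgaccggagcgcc
Syce2: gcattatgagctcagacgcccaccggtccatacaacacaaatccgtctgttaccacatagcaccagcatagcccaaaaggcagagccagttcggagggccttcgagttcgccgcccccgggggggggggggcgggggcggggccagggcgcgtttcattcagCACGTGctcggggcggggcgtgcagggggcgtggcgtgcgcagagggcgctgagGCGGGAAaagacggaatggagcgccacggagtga
Sycp2: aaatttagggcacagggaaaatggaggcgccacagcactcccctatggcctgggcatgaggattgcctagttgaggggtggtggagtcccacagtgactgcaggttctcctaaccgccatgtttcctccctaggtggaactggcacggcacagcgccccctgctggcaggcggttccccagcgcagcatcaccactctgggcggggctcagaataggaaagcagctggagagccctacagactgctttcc

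Windows of 300 bases (250 before and 50 after the start) were searched on both strands for 5 motifs. CACGTG was present in the windows of Sycp1, Sycp3, Tex12, Hormad1 and Syce2, which are the 5 members called lower, and in none of those of Sycp2, Syce1, Syce3 and Hormad2. This match depends on the setting: the call of Syce2 was lost in 17 of 27 alternatives, and Hormad2 was called lower with scaling to array medians and without R replicate 3. The E-box was found in 7.15% of all 32851 windows, in a window of 8.09% of all 27025 genes, and in 10.7% of the tested genes with a window. Sycp3 and Hormad1 held it 2 times each, at 64 and 43 bases and at 57 and 20 bases before the start. It began 94 bases before the start in Sycp1, 93 in Tex12 and 88 at the second start of Syce2, while the window of the first Syce2 start had none.

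The E2F motif was present in 4 of these 5 genes, beginning 147 bases before the start in Sycp3, 145 in Tex12, 95 in Hormad1 and 34 in Syce2, against 8.45% of the tested genes with a window. Windows of Hormad2, Syce2, Sycp1 and Tex12 held CNCCTCAG, a motif of STRA8, against 10.8% of the tested genes. In Syce2 it shared 3 bases with the E2F motif. AACNGNC of the MYB family occurred in 6 members (Hormad1, Syce1, Syce2, Syce3, Sycp2 and Sycp3), against 37.9% of the tested genes. The cyclic AMP response element TGACGTCA, present in 3.17% of the tested genes, had no match.

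Across the array, 28.0% of 1423 tested genes with CACGTG in a window were called lower in R, beside 23.1% of all 13335 tested genes with a window. Called higher were 12.4% of the genes with CACGTG, beside 13% of all. Most genes with an E-box were therefore not called lower, and a match describes the letters in the window and not the binding of a factor.

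**Figure D2:**
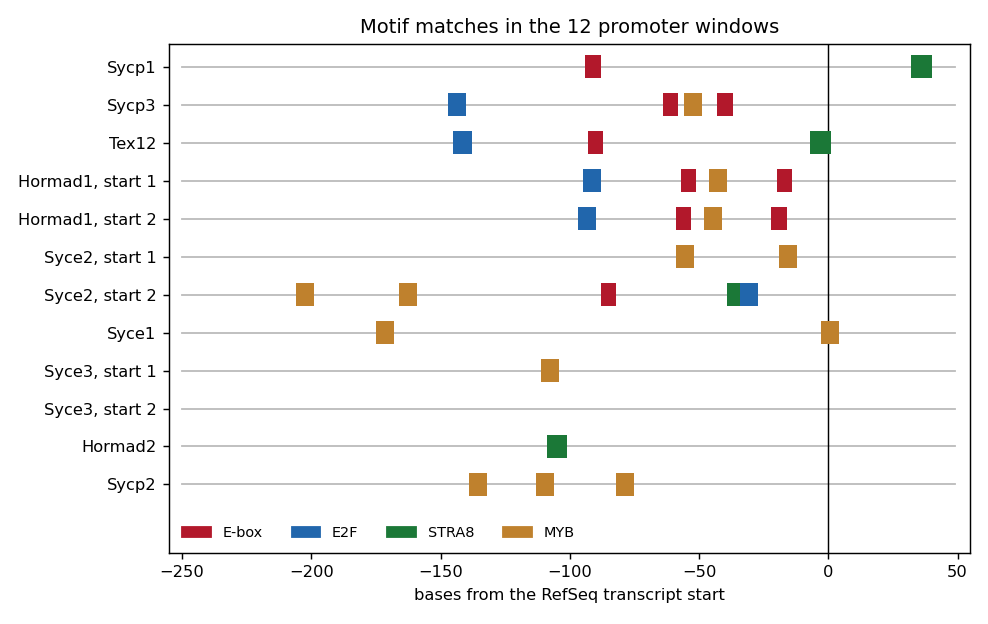
Positions of motif matches in the 12 promoter windows of the 9 genes, in bases from the RefSeq transcript start (horizontal axis). Coloured blocks are matches on either strand, and E-boxes lie in windows of the 5 genes lower in R and in none of the windows of Sycp2, Syce1, Syce3 and Hormad2, with the Syce2 call lost in 17 of 27 alternative settings.

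Sycp1 encodes the transverse filament protein, whose appearance between the axes is the usual sign of synapsis. Its log2 signal was 2.93, 3.06, 3.03, 3.11 and 2.87 in R replicates 1 to 5, against 3.49, 3.84, 3.48, 3.53 and 3.93 in C replicates 1 to 5. Every R array lay below every C array, and C replicates 5 and 2 were the highest. The means were 3.00 ± 0.10 in R and 3.65 ± 0.21 in C (SD, n = 5 each), a log2 difference of −0.65 (95% interval −0.89 to −0.42). Sycp1 was thus 1.57-fold lower in R (interval 1.34 to 1.85, limma adjusted p = 0.00264). Within slides the difference was −0.63 on slide 1 and −0.78 on slide 2. Without the contested pair of arrays it was −0.57 (limma adjusted p = 0.0209).

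The central element genes fell into very unequal changes. Tex12 encodes a small protein that assembles with SYCE2 into the fibres of the central element. Its log2 signal was 0.55, 0.64, 0.86, 0.76 and 0.75 in R, against 1.64, 2.20, 1.70, 1.69 and 2.12 in C. The 2 groups were separated by a wide gap, with C replicates 2 and 5 again the highest. Tex12 was 2.23-fold lower in R (95% interval 1.84 to 2.70), at 0.71 ± 0.12 in R and 1.87 ± 0.27 in C (SD, n = 5 each). The log2 difference was −1.16 with a limma adjusted p of 0.00102, the largest change and the smallest p among the 9 genes. It was −1.22 on slide 1, −1.09 on slide 2 and −1.06 without the contested pair of arrays (limma adjusted p = 0.0152).

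Syce2, the partner of Tex12, was at 5.27, 5.35, 5.36, 5.25 and 5.38 in R, against 5.40, 5.54, 5.47, 5.55 and 5.60 in C. The groups did not overlap, but R replicate 5 and C replicate 1 were only just apart. The log2 difference of −0.19 (95% interval −0.33 to −0.05) made Syce2 1.14-fold lower in R (limma adjusted p = 0.0371). This call was lost in 17 of 27 alternative settings, among them the slide as a block (−0.16, limma adjusted p = 0.0559) and 7 of the 10 fits without 1 array, and over the 27 its adjusted p ran from 0.0100 to 0.714. Within slides the difference was −0.16 on both, and without the contested pair of arrays it was −0.15 (limma adjusted p = 0.158).

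Syce1 encodes a central element protein that contacts SYCP1. It was at 6.27, 6.31, 6.39, 6.38 and 6.45 in R, against 6.18, 6.05, 6.35, 6.37 and 6.27 in C, and the groups overlapped. The log2 difference was 0.12 (95% interval −0.06 to 0.29, limma adjusted p = 0.244). The interval allows a fold of R over C between 0.962 and 1.22. Its sign turned to −0.074 when arrays were scaled to their medians (limma adjusted p = 0.460), which shifts all genes alike, and relative to the median of all genes it was 0.17 under both scalings. Within slides the difference was 0.22 on slide 1 and 0.12 on slide 2. Syce1 was called higher with the slide as a block (0.19, limma adjusted p = 0.0335), within a range of adjusted p from 0.0335 to 0.681 over the 27 settings.

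Syce3 encodes a small central element protein that helps to recruit the others. Its log2 signal was 5.43, 5.52, 5.46, 5.52 and 5.57 in R, against 5.48, 5.82, 5.59, 5.55 and 5.70 in C, with overlap between the groups. The log2 difference was −0.13 (95% interval −0.29 to 0.04, limma adjusted p = 0.196), and no alternative setting called it. Within slides it was −0.17 on slide 1 and −0.043 on slide 2.

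The axis genes Sycp2 and Sycp3, whose proteins bind each other, changed in opposite directions. Sycp3, the standard marker of the axis in spreads of spermatocytes, was at 2.86, 2.80, 2.89, 2.94 and 2.93 in R, against 3.46, 3.93, 3.30, 3.36 and 3.80 in C. The R arrays lay close together and all below the C arrays. Sycp3 was 1.61-fold lower in R (95% interval 1.33 to 1.94), at 2.88 ± 0.06 in R and 3.57 ± 0.28 in C (SD, n = 5 each). The log2 difference was −0.68 with a limma adjusted p of 0.00369. It was −0.82 on slide 1 and −0.55 on slide 2, and −0.62 without the contested pair of arrays (limma adjusted p = 0.0279).

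Sycp2 was at 2.66, 2.75, 2.57, 2.77 and 2.67 in R, against 2.16, 2.07, 2.20, 2.23 and 2.17 in C. Every R array lay above every C array, and the spread in C was small, with C replicate 2 the lowest. Sycp2 was 1.43-fold higher in R (95% interval 1.30 to 1.58), at 2.68 ± 0.08 in R and 2.17 ± 0.06 in C (SD, n = 5 each). The log2 difference of 0.52 had a limma adjusted p of 0.00131, and the fold stayed below the study's criterion. The difference was 0.57 on slide 1, 0.48 on slide 2 and 0.52 without the contested pair of arrays (limma adjusted p = 0.0167). Scaled to array medians, where the median of all genes moved to −0.24, it was 0.33 (limma adjusted p = 0.0119).

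A second Sycp2 probe moved the same way by less. It was at 2.35, 2.27, 2.41, 2.41 and 2.45 in R, against 2.11, 1.94, 2.25, 2.22 and 2.23 in C, again without overlap. Its log2 difference was 0.23, or 1.17-fold higher in R (limma adjusted p = 0.0372), with 0.34 on slide 1 and 0.22 on slide 2.

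Hormad1 and Hormad2 encode HORMA-domain proteins of axes that have not yet synapsed, and they are removed from the axes once the complex forms. Hormad1 was at 2.25, 2.35, 2.43, 2.45 and 2.33 in R, against 3.27, 3.90, 3.08, 3.12 and 3.45 in C. The highest R array stayed below the lowest C array, and C replicate 2 stood above the other C arrays. Hormad1 was 2.0-fold lower in R (95% interval 1.6 to 2.49), at 2.36 ± 0.08 in R and 3.36 ± 0.33 in C (SD, n = 5 each). The log2 difference of −1.0 had a limma adjusted p of 0.00179. It was −1.21 on slide 1 and −0.88 on slide 2, −0.87 without C replicate 2, and −0.95 without the contested pair of arrays (limma adjusted p = 0.0200).

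The 2 other Hormad1 probes were dimmer and showed smaller differences of the same sign. They were −0.40, at 0.93 ± 0.09 in R and 1.33 ± 0.26 in C (limma adjusted p = 0.0257), and −0.29, at −0.56 ± 0.06 in R and −0.26 ± 0.12 in C (limma adjusted p = 0.0121; SD, n = 5 each). Neither overlapped between the groups. Within slides the first differed by −0.62 on slide 1 and −0.35 on slide 2, and the second by −0.38 on slide 1 and −0.19 on slide 2. The size of the Hormad1 change thus depended on the probe, and the mean of the 3 probes gave −0.56.

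Hormad2 was at −1.41, −1.54, −0.50, −1.30 and −1.33 in R, against −0.91, −0.82, −0.92, −0.87 and −0.74 in C. R replicate 3 was the highest of all 10 arrays, while the other 4 R arrays lay below every C array. The log2 difference was −0.37 (95% interval −0.75 to 0.02, limma adjusted p = 0.111), and Hormad2 did not pass the test. Without R replicate 3 it was −0.55 and passed (limma adjusted p = 0.00373), within a range from 0.00373 to 0.789 over 27 alternative settings. Within slides it was −0.32 on slide 1, which holds R replicate 3, and −0.49 on slide 2.

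**Figure D3:**
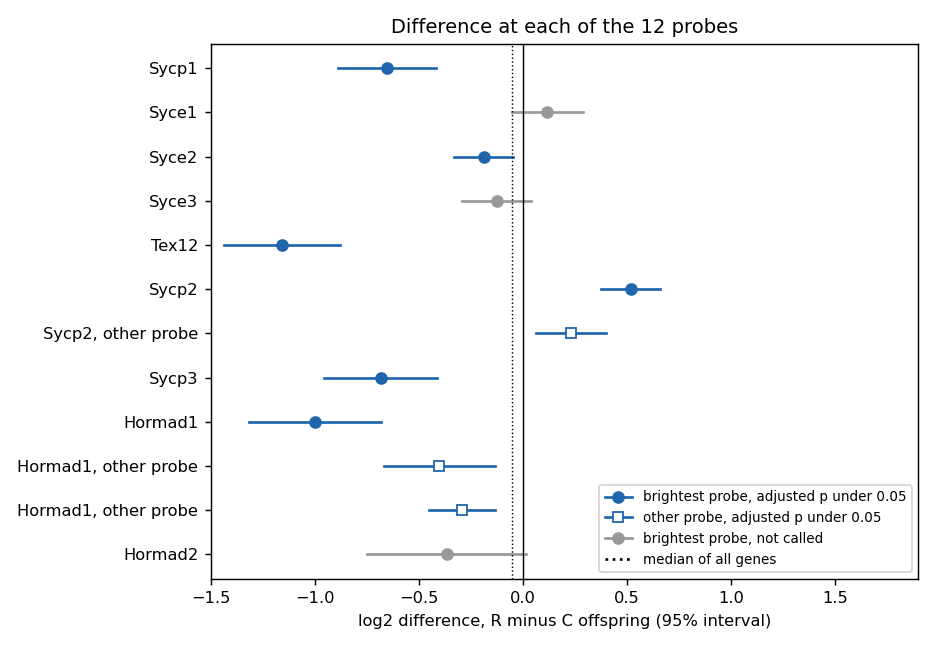
Log2 difference, R minus C, with its 95% interval (horizontal axis) at each of the 12 probes. The dotted line is the median of all genes at −0.052. The intervals of Tex12 and of the brightest Hormad1 probe end at −0.88 and −0.68, and both Sycp2 probes lie above 0.

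In 6 of the 9 genes no R array overlapped a C array, 5 lower and 1 higher, against 18.2% of all genes lower without overlap and 11.0% higher without overlap (29.3% in either direction). The calls of Sycp1, Sycp2, Sycp3, Tex12 and Hormad1 held in 25 of 27 alternative settings. Without C replicate 2 all 6 members called lower or higher kept their calls, and without the contested pair 5 did, Syce2 being the exception. The 2 settings in which the 5 calls were lost were slide 2 alone, with 1 R array against 3 C arrays, and the grouping of the authors' table. On slide 2 alone 0 of 33851 probes were called by limma (8749 at an unadjusted p under 0.05), and 5 members had an unadjusted p under 0.05 there.

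The scaling between arrays cancels in the ratio of 2 genes on the same array, so the direct partners were also compared as ratios. The 4 pairs were chosen after the values were seen, so their ratios are a description with no test. The log2 ratio of Sycp2 to Sycp3 was −0.20, −0.047, −0.32, −0.18 and −0.26 in R, against −1.30, −1.86, −1.10, −1.13 and −1.63 in C. All R arrays were above all C arrays. The mean difference of 1.20 is a 2.30-fold higher ratio in R, at −0.20 ± 0.10 in R and −1.40 ± 0.33 in C (SD, n = 5 each). Its size depends on the probe: the brightest Sycp2 probe, used here, differed by 0.52 between R and C. The second differed by 0.23 and would give a smaller gap.

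The ratio of Tex12 to Syce2 differed by −0.97, or 1.96-fold lower in R, at −4.61 ± 0.11 in R and −3.64 ± 0.22 in C (SD, n = 5 each). For Sycp1 over Syce1 the difference was −0.77, or 1.71-fold lower in R, at −3.36 ± 0.13 in R and −2.59 ± 0.30 in C. With the brightest Hormad1 probe, the Hormad1 to Hormad2 ratio ran from 2.93 to 3.89 in R and from 3.98 to 4.72 in C, a difference of −0.63. This gap depends on the probe, since the 2 other Hormad1 probes differed by −0.40 and −0.29 between R and C, close to the −0.37 of Hormad2. In each of the 4 pairs of brightest probes the R and C ratios did not overlap. For Sycp2 and Sycp3 this follows from their single values, which were apart in opposite directions. Ratios of other genes were not examined, so this count is no further support for the calls.

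**Figure D4:**
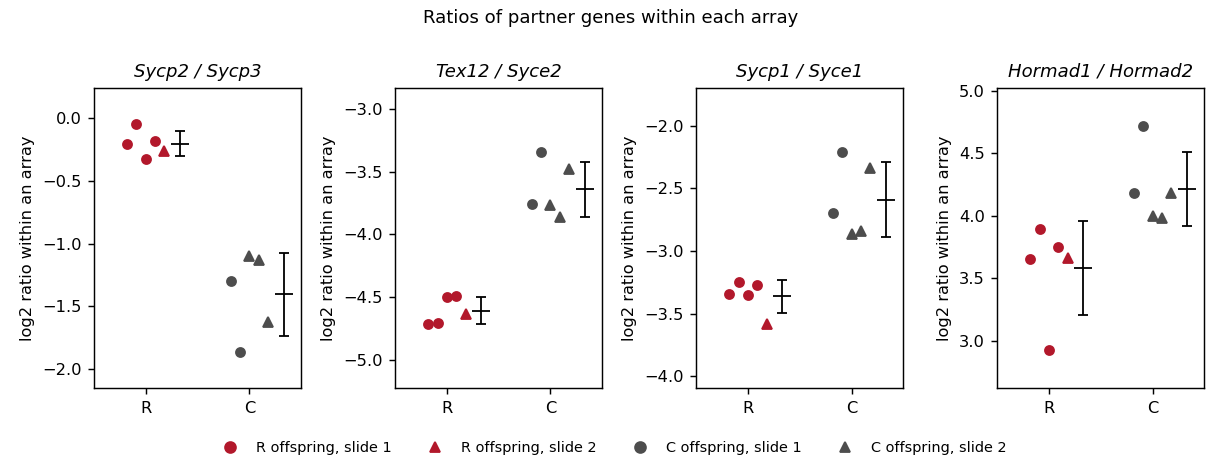
Log2 ratio of 4 pairs of partner genes within each array (vertical axis), with the 5 R and the 5 C arrays as points (circles slide 1, triangles slide 2) and the group mean with its SD beside them. The Sycp2 to Sycp3 ratio lies between −0.32 and −0.047 in R and between −1.86 and −1.10 in C, and the other 3 ratios lie lower in R than in C.

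The array profiles of Sycp1 and Sycp3 were nearly the same shape. After each profile was centred on its own mean, their root mean square difference over 10 arrays was 0.11 on the log2 scale, beside a median of 0.39 between Sycp3 and all genes. Hormad1 stood at 0.18 from Sycp3, Tex12 at 0.25 and Sycp2 at 0.64. Genes outside the complex came closer still: the 5 nearest to Sycp3 were Ppp1cb, Chuk, Wipf1, Sirt1 and Trpm7, at 0.063 to 0.076. The 5 nearest to Sycp1 were Lipo3, Tgfbr1, Mettl5, Taf4 and Fbxo11, at 0.066 to 0.082. All these profiles share the same 10 arrays and the same group difference, so this likeness is a description.

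Other components and partners of the complex and axis were described next, in a list of 11 tested genes. In it 3 genes were lower and 1 was higher in R, or 36.4% called, which is near the 36.1% of all genes called in either direction. The median log2 difference was −0.18. Trip13 encodes the ATPase that strips HORMAD proteins from synapsed axes. It was 1.48-fold lower in R, at 0.60 ± 0.09 in R and 1.17 ± 0.19 in C (SD, n = 5 each, limma adjusted p = 0.00305). Fkbp6, a co-chaperone needed for spermatocytes to pass meiosis, was 1.40-fold lower (limma adjusted p = 0.0117). Smc3, a cohesin subunit, was 1.25-fold lower (limma adjusted p = 0.0135), although its second probe had the opposite sign, at 0.23. Stag3, a cohesin subunit of the meiotic axis, was 1.24-fold higher (limma adjusted p = 0.0155), and its second probe was higher too.

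Of 20 genes of break formation, strand exchange and crossover, 9 were lower in R and 0 higher, with a median of −0.26. That is 45% called, all lower, against 22.9% of all genes called lower and 13.2% called higher. Spo11, which makes the meiotic breaks, was 1.38-fold lower, at 2.90 ± 0.10 in R and 3.37 ± 0.18 in C (SD, n = 5 each, limma adjusted p = 0.00548). Hfm1, a helicase of crossover formation, was 1.28-fold lower (limma adjusted p = 0.00589), although its second probe differed by only −0.036. Ccnb1ip1, a ubiquitin ligase family protein of crossover sites, was 1.47-fold lower (limma adjusted p = 0.0118).

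The 7 genes of telomere attachment and chromosome movement gave 2 lower and 2 higher, or 57.1% called, against 36.1% of all genes. Cdk2, a kinase at the telomeres of spermatocytes, was 1.53-fold lower in R (limma adjusted p = 0.00175). Its telomeric activator Spdya was 1.19-fold higher (limma adjusted p = 0.0406). Terb1, which ties telomeres to the nuclear envelope, was 1.31-fold higher (limma adjusted p = 0.00550). Sun1, a protein of that envelope, was 1.38-fold lower (limma adjusted p = 0.00298), but only 2 of its 6 probes had that sign. The median of this list was −0.13.

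Of 6 genes that respond to unsynapsed axes, 1 was lower and 2 were higher, with a median of −0.064. That is 50% called, against 36.1% of all genes. Topbp1, an activator of the kinase ATR, was 1.44-fold lower in R (limma adjusted p = 0.00221), with a second probe of the opposite sign at 0.035. Hus1, of a checkpoint clamp, was 1.30-fold higher (limma adjusted p = 0.0466) and Mdc1, which spreads the damage mark over chromatin, 1.17-fold higher (limma adjusted p = 0.0493). H2ax, the histone that carries this mark, had a difference of −0.30 and did not pass (limma adjusted p = 0.0983).

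The regulators of meiotic entry had the highest share of calls among the 5 meiotic lists (81.8%, against 36.1% of all genes). Of 11 genes 8 were lower in R and 1 was higher, with a median of −0.48. Ythdc2, an RNA helicase needed for the switch into meiosis, was 1.99-fold lower, at −1.88 ± 0.13 in R and −0.89 ± 0.20 in C (SD, n = 5 each, limma adjusted p = 0.00100). Its partner Meioc was 1.46-fold lower (limma adjusted p = 0.00177), though a second probe was opposite, at 0.46. Stra8, the gene through which retinoic acid starts meiosis, was 1.75-fold lower, at 2.26 ± 0.11 in R and 3.06 ± 0.28 in C (SD, n = 5 each, limma adjusted p = 0.00250). Sohlh1, a factor of differentiating spermatogonia, was 1.29-fold lower (limma adjusted p = 0.00838).

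Mga was the 1 gene of that list called higher in R, by 1.22-fold (limma adjusted p = 0.0163), and it is named after its value was seen. It encodes a DNA-binding partner of MAX. Of the genes whose products act with it, Max was 1.33-fold lower (limma adjusted p = 0.0105), E2f6 1.51-fold lower (limma adjusted p = 0.0128) and Pcgf6 1.40-fold lower (limma adjusted p = 0.0146), with a second Pcgf6 probe of the opposite sign at 0.25. These 3 are likewise named after their values were seen. Any link between the values of these regulators and the motif matches of the members, in either direction, was not tested. In the 5 meiotic lists together, 23 of 55 genes were lower and 6 higher, or 52.7% called, against 36.1% of all genes called in either direction. As reported 29 of these 55 genes were called, beside 38.8% of all probes. Without C replicate 2, 24 of them were called, beside 38.1% of all probes. Without the contested pair of arrays 13 were, beside 18.2% of all probes. The share over all genes was not computed without these arrays.

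**Figure D5:**
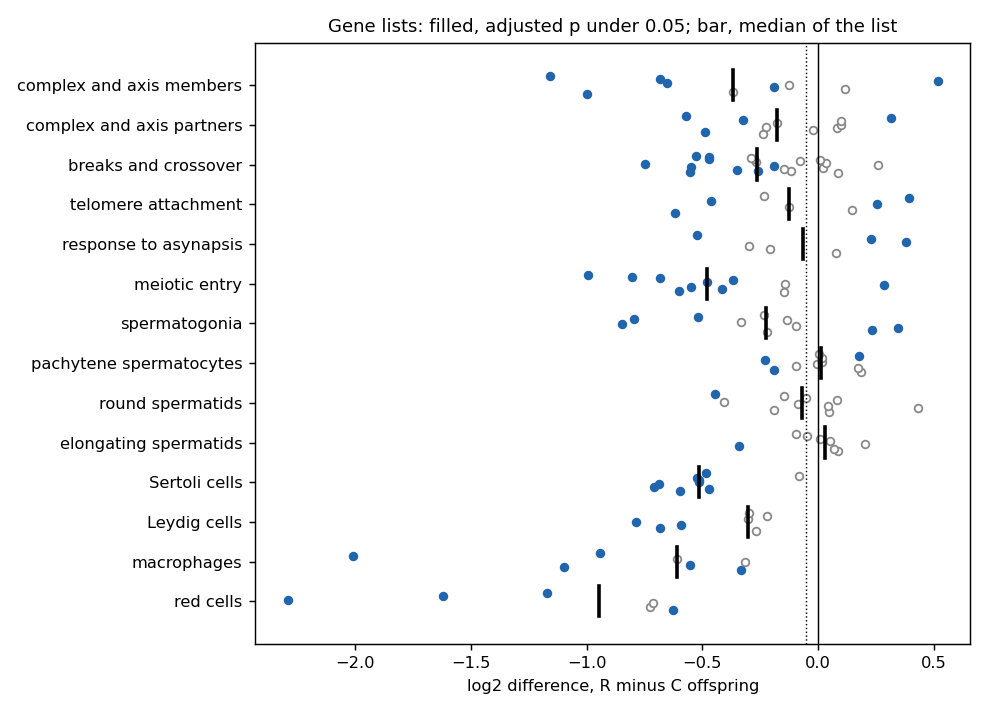
Log2 difference, R minus C (horizontal axis), of every tested gene of the members and of the other lists (1 row per list), with called genes filled, the list median as a bar and the median of all genes as a dotted line. The medians run from −0.95 for red cell markers to 0.030 for elongating spermatid markers, and the synaptonemal members span −1.16 to 0.52.

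Marker lists of the cells that a testis holds are given beside these counts. The testis label fitted its markers, since every tested marker of pachytene spermatocytes and of round and elongating spermatids was well above background on all 10 arrays. Pachytene spermatocyte markers, of the cells in which the complex is complete, had a mean log2 signal of 4.99 to 5.10 in R and 4.98 to 5.09 in C. Of 10 such markers 2 were lower and 1 was higher (median 0.011), or 30% called, against 36.1% of all genes. Round spermatid markers gave 1 lower of 10 (10% called, median −0.068) and elongating spermatid markers 1 lower of 8 (12.5% called, median 0.030). No marker of the 2 spermatid lists was higher.

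Markers of the cells before meiosis had lower list means in R. The mean log2 signal of 10 spermatogonia markers was 0.34 to 0.51 in R and 0.54 to 0.96 in C, where C replicate 2 was the highest. Of these, 3 were lower and 2 higher, or 50% called, against 36.1% of all genes. Kit, the receptor of differentiating spermatogonia, was 1.80-fold lower (limma adjusted p = 0.00273). Gfra1, the receptor of their stem cells, was 1.27-fold higher (limma adjusted p = 0.0144).

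Somatic markers were mostly lower in R. Sertoli cell markers gave 8 lower of 9, with a mean log2 signal of 1.52 to 1.80 in R and 1.80 to 2.66 in C. Leydig cell markers gave 3 lower of 7 at 0.56 to 1.15 in R and 0.74 to 1.67 in C. Macrophage markers gave 5 lower of 7 at −2.12 to −1.29 in R and −1.30 to −0.60 in C, and red cell markers 4 lower of 6 at −1.29 to 0.30 in R and 0.19 to 1.22 in C. None of these 4 lists held a gene called higher in R. The shares called lower were 88.9% for Sertoli, 42.9% for Leydig, 71.4% for macrophage and 66.7% for red cell markers. Of all genes 22.9% were called lower and 13.2% higher. Lhcgr, Lyz2 and Hbb-b1, of the last 3 lists, were well above background on 2 of 5 R arrays and on 5 of 5 C arrays. The part of these shifts in the values of the synaptonemal genes was not tested.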

How the data were processed

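The authors deposited 1 file per array with spot intensity values from Agilent Feature Extraction 12.0.3.1, as the submitters' processing notes name it. According to the deposited file headers, this program subtracted the background and removed spatial trends from the processed intensity, without scaling between arrays. Its flags mark spots that are above background, saturated or outliers. The authors' deposited table gives, for their own comparison, scaled intensities, a log2 ratio, a p-value and a q-value per probe. Its 10 further per-sample columns were left unused, and how it was made is not given in the sources used here.

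The RNA came from 1 of 2 column kits, per the labels' protocols, and the kit used for each testis is not given in the sources used here. With litters unknown, p-values treat the 10 animals as independent. The labels give no pairing.

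After control and outlier spots were dropped, log2 processed intensities were averaged over the spots of each probe, and the array's 75th percentile over non-control probes was subtracted. Probes well above background on at least 5 arrays were tested in limma 3.58.1 under R 4.3.3 (lmFit and eBayes, 2-sided, Benjamini-Hochberg), with 2 more dropped for a missing value. Of 56605 probes, 33767 took a symbol through their accession and 234 through the deposited symbol. Precision is limited by the number of arrays. The fit was tested on simulated data, where it recovered 70% of 2-fold changes, with 12 false calls. The simulated noise was independent between probes and held no effect shared by a whole array, so it does not vouch for the calls here.

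All members were named whatever their values, with up to 4 tested genes of smallest p of each other list (some of the markers are given only as counts, and 1 gene is not reported here) and the 5 genes most alike to Sycp3 and to Sycp1. Members and lists were chosen with earlier results of these data known. Genes that took no probe (Ankrd31, Shoc1, Rnf212, Bend2, Meiosin and Hbb-bs) were not analysed here. Alternatives were another background correction (normexp with an offset of 50, on median signals because the files hold no mean signal), 4 other scalings, other filters, other probe rules, slide, array weights, left-out arrays and the table's grouping. The 75th percentile over spots, C replicate 2 left out together with a slide block, and the partner ratios were added after seeing the data.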

Additional observations from a re-analysis of the deposited data

Results flagged for a closer look

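In 24 groups of 5 values (2 groups for each of 12 probes), 2 values stood apart from the rest of their group by Dixon's criterion (ratio above 0.71), and chance alone flags a small share of such groups, about 1 in 20.

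Hormad2 in R replicate 3 was at −0.50, above the next R array at −1.30 (ratio 0.770). The same array was not the highest R array for Hormad1, at 2.43. C replicate 2 was the highest C array for the dimmest Hormad1 probe, at −0.052, with the next C array at −0.28 (ratio 0.791), and it was also the highest C array at the 2 other Hormad1 probes.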

How the results depend on the processing

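No paired analysis was possible because the labels give no replicate numbers shared between R and C animals. In the fits as reported 6 members were called, 5 lower and 1 higher, with 29 genes of the 5 meiotic lists. Leaving out 1 array at a time gave 5 to 6 members, 4 to 5 lower and 1 higher, and 21 to 28 list genes. Scaling to array medians gave 7 members, 6 lower and 1 higher, with Hormad2 added, and 37 list genes. On slide 2 alone, and with the grouping of the authors' table, 0 members were called lower or higher and 0 list genes were called. Slide 2 alone leaves 1 R array, assumed to vary like the C arrays. With the slide as a block 2 members were called higher, Sycp2 and Syce1, with 34 list genes. Without the contested pair of arrays 13 list genes were called, with fewer samples. Syce1 changed its sign only with scaling to array medians, to −0.074. That scaling shifts all genes alike, moving their median to −0.24 from the −0.052 reported, and Syce1 kept its value relative to that median. The cause of the other changes was not tested. With 1 array left out at a time Sycp2 lay at 0.49 to 0.55, Tex12 at −1.22 to −1.08, Sycp1 at −0.70 to −0.58, Sycp3 at −0.75 to −0.59 and Hormad1 at −1.07 to −0.87. Over all probes 13135 were called, against 17747 with the slide as a block, 8979 with no filter, 6164 without the contested pair and 0 in the 2 settings that called none. Calls higher in R were 51.0% of all calls as reported, 27.4% with scaling to array medians and 62.2% with the authors' scaling factors. All member probes were well above background on the 10 arrays, and whether background narrows the differences of dim probes was not tested. The 3 Hormad1 probes differed by less the dimmer they were.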
